A study of Mus musculus with 4 samples.

Results

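Leukocytes leave the blood through an adhesion cascade, and 9 of its genes were followed here by symbol among the 55357 genes of a single-cell RNA sequencing study of the mouse ascending aorta. They comprise the selectins Sele and Selp, their ligand Selplg, the endothelial ligands of integrins Icam1, Icam2 and Vcam1, and the leukocyte integrin subunits Itgal, Itgb2 and Itga4. For each gene the unique molecular identifiers (UMIs, 1 per captured transcript) were summed per library and per class of cells. The AD_ABR mice (2 libraries) received paquinimod (ABR 25757), a quinoline-3-carboxamide that binds S100A9, at 10 mg/kg per day by the intragastric route, on top of the dissection model. The AD mice (2 libraries) carried the dissection model without paquinimod. All mice of both groups were wild-type males that drank water with beta-aminopropionitrile (BAPN), an inhibitor of the cross-linking of collagen and elastin, at 1 g/kg per day for 4 weeks from 3 weeks of age. No mice without BAPN were analysed here, and the labels do not say how many mice went into a library, so that the p-values measure the spread between libraries, which may be partly technical.

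E-selectin and P-selectin on activated endothelium catch passing leukocytes by binding sugars on P-selectin glycoprotein ligand, the product of Selplg, and the cells begin to roll. Firm arrest follows when the leukocyte integrins bind their endothelial ligands, the Itgal and Itgb2 pair binding the products of Icam1 and Icam2, and integrins with the Itga4 subunit binding the product of Vcam1. Sele, Icam1 and Vcam1 are known to be transcribed on inflammatory stimulation through nuclear factor kappa B (NF-kB), while P-selectin is also stored in Weibel-Palade bodies and Icam2 is present on resting endothelium.

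On GRCm38, Sele lies on chromosome 1 from 164048234 to 164057677 and Selp on the same strand of that chromosome from 164115264 to 164150026. Icam1 spans 21015985 to 21028817 of chromosome 9, Vcam1 spans 116109949 to 116129688 of chromosome 3 and Icam2 spans 106377656 to 106388075 of chromosome 11. The integrin subunits Itgal, Itgb2 and Itga4 are on chromosomes 7, 10 and 2, and Selplg is on chromosome 5. RefSeq promoter windows on GRCm38.p6, from 250 bases before to 50 bases after the RefSeq start, were found for 4 of the 9 genes. The windows of Sele, Selp and Icam1 are shown because these genes were lower together in endothelial-like cells, and Itga4 had the other window, which held no match. Capitals mark the match to a loose form of the NF-kB element, GGG followed after any 5 bases by CC, searched on both strands. A match was present once in each of the 3 windows shown and in 50.8% of all 32851 promoter windows.
Sele, chr1:164047984-164048283, plus strand: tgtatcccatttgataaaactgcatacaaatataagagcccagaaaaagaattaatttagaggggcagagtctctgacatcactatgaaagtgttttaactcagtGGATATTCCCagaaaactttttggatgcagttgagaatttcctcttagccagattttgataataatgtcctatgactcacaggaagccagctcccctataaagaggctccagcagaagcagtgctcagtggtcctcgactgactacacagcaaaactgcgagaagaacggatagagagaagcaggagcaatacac
Selp, chr1:164115014-164115313, plus strand: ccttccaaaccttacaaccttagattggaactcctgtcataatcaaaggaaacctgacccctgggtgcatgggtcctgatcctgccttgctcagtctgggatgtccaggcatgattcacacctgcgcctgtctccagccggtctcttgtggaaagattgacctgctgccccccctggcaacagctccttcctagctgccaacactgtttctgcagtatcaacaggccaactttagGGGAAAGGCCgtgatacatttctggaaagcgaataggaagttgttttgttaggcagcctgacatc
Icam1, chr9:21015690-21015989, plus strand: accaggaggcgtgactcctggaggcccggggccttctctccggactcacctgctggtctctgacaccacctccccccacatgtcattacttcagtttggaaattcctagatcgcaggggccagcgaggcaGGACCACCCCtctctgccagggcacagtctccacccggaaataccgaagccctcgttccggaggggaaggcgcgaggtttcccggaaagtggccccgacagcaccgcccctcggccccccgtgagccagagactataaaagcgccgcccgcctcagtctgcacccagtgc
In Sele the match began 145 bases before the start and in Icam1 120 bases before it, both on the minus strand. In Selp it began 15 bases before the start, on the plus strand. The tighter form, GGG followed after any 2 bases by TTTCC, is a subset of the loose one and had no match in the 4 windows and occurred in 1.63% of all windows. A match is a description of the letters and not evidence of a bound site.

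The AD_ABR libraries held 93575612 and 98946431 UMIs and the AD libraries 76142840 and 99572011, and 37259 cells were kept. The kept cells had a median of 9452 and 8208 UMIs in AD_ABR and 5268 and 7185 in AD. AD replicate 1 stood apart, with the lowest depth and with 1636 neutrophil-like cells, against 233 in AD replicate 2 and 22 and 13 in AD_ABR. Values without AD replicate 1 are therefore given beside the main results. The libraries shared 124 barcodes among the kept cells. Cells were clustered without the 9 genes, and a cluster was called after a cell type with the ending -like from its markers, so names may differ from those of the authors. Summed counts were compared in 13 classes and unnamed clusters that had at least 50 cells in every library. Levels are in CPM, the summed UMIs of a gene scaled to a common total for each library and class, ± gives the SD over 2 libraries for a level and the SE for a fold change, and fold changes are AD_ABR over AD. The threshold throughout was an adjusted p of 0.05 in edgeR's quasi-likelihood test over all genes of a class, and genes under the filter on low counts are given as levels only. Of 71 tests of the 9 genes over the 13 classes, 10 were of genes that reached the level of the filter in AD libraries only. Such a gene had to be lower in AD_ABR to be tested, so its call, made for 2 of these 10, is named as such and gives no independent evidence of a direction.

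Endothelial-like cells of the AD_ABR aortas carried less transcript of both selectins and of the inducible integrin ligands Icam1 and Vcam1. There were 240 and 275 such cells in AD_ABR and 194 and 478 in AD. The summed level of 10 endothelial markers was close in all libraries, at 5777 and 5440 CPM in AD_ABR and 5447 and 5438 CPM in AD. Of the 9 genes, 5 passed the filter on low counts in these cells, and 4 of those fell while none rose. Over all 10769 genes tested in these cells 6.38% passed the threshold in either direction and 4.42% fell. The groups did not overlap for any of the 5, nor for 53.4% of all genes.

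Sele, the endothelial selectin that is made on activation, had 66.5 and 39.7 CPM in the AD_ABR libraries, against 361 and 345 CPM in the AD libraries. Its level averaged 53.1 ± 18.95 CPM in AD_ABR and 353 ± 11.3 CPM in AD (SD, n = 2 each), and the groups did not overlap. The log2 fold change was -2.77 ± 0.19 (adjusted p = 3.8e-06), and without AD replicate 1 it was -2.76. Sele was represented by 180 and 98 UMIs in AD_ABR and by 580 and 1136 UMIs in AD, so the AD_ABR levels rest on fewer UMIs.

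Selp, the selectin kept in storage granules, had 230 and 263 CPM in AD_ABR, against 701 and 580 CPM in AD. Both AD_ABR libraries were below both AD libraries. The log2 fold change was -1.42 ± 0.15 (adjusted p = 4.2e-05), or -1.30 without AD replicate 1. Icam1, the inducible ligand of the Itgal and Itgb2 integrin, had 578 and 542 CPM in AD_ABR, against 1219 and 1293 CPM in AD. The log2 fold change was -1.21 ± 0.13 (adjusted p = 5.9e-05), or -1.27 without AD replicate 1. For Icam1 the spread within each group was small beside the gap between them, with means of 560 ± 25.7 CPM in AD_ABR and 1256 ± 52.2 CPM in AD (SD, n = 2 each).

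Vcam1, the ligand of Itga4 integrins, had 1334 and 1381 CPM in AD_ABR endothelial-like cells, against 1964 and 2141 CPM in AD. It fell by less than the other called genes, with a log2 fold change of -0.64 ± 0.13 (adjusted p = 0.0079), or -0.72 without AD replicate 1. The Vcam1 call was lost without AD_ABR replicate 1 (adjusted p = 0.15) and without AD_ABR replicate 2 (adjusted p = 0.11). Icam2, the constitutive ligand, was the one gene of the group with a higher level in both AD_ABR libraries, at 577 and 607 CPM, against 313 and 471 CPM in AD. Its log2 fold change of 0.54 ± 0.17 did not pass (adjusted p = 0.079). It was 0.27 without AD replicate 1 (adjusted p = 0.22) and 0.89 without AD replicate 2, where it passed (adjusted p = 2.1e-08). The leukocyte genes Selplg, Itgal, Itgb2 and Itga4 were near the floor in endothelial-like cells, with at most 6.85 CPM in any library, and were not tested there.

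**Figure D1:**
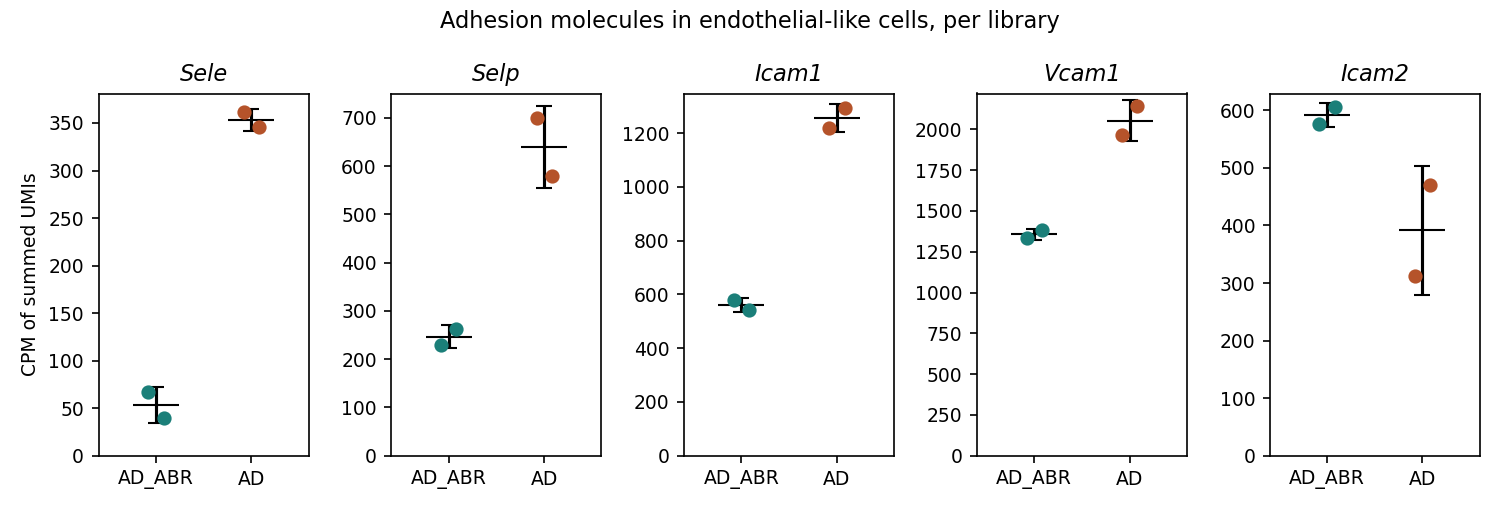
Level in endothelial-like cells (CPM of summed UMIs, linear axes from 0) of the selectins Sele and Selp and the integrin ligands Icam1, Vcam1 and Icam2. Points are libraries, AD_ABR left of AD, with the mean and SD of 2 libraries. The AD_ABR points of Sele, Selp, Icam1 and Vcam1 lie below both AD points, and those of Icam2 lie above them.

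The share of endothelial-like cells with at least 1 UMI was compared after each cell had been thinned to 1000 UMIs, since the libraries differ in depth. This left out 2 and 11 cells of AD_ABR and 4 and 18 cells of AD that held fewer. Sele was then seen in 5.46 and 2.65% of AD_ABR cells, against 21.1 and 18.3% of AD cells. The exact 95% binomial intervals of Sele were 2.94 to 9.16% and 1.07 to 5.39% in AD_ABR and 15.5 to 27.5% and 14.8 to 22.1% in AD. In smooth muscle-like cells, which served as the background for Sele, the share was at most 0.112% in any library, with a median of 10628.5 and 9419 UMIs per cell in AD_ABR and 8148 and 7692 in AD. Endothelial-like cells had a median of 8803 and 7008 UMIs in AD_ABR and 6571.5 and 5648 in AD. Without thinning Sele was seen in 18.3 and 14.2% of AD_ABR cells and in 44.8 and 38.3% of AD cells.

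Selp was seen in 19.7 and 18.6% of thinned AD_ABR cells, against 32.1 and 34.1% in AD. Icam1 was seen in 33.2 and 30.7% of AD_ABR cells, against 57.9 and 57.0% in AD. The Vcam1 share was 60.1 and 61.0% in AD_ABR and 66.8 and 74.3% in AD. Icam2 had the opposite order, at 44.5 and 47.0% in AD_ABR and 24.7 and 35.0% in AD. In smooth muscle-like cells, thinned alike, the share was at most 0.112% for Selp, 1.41% for Icam1, 3.69% for Vcam1 and 0.223% for Icam2 in any library. No class taken to lack Icam1 or Vcam1 was at hand, since smooth muscle-like cells are themselves compared for both genes. With 2 libraries a group, an exact two-sided permutation test of a share cannot give a p below 0.333, so no test is given. The intervals cover counting error only.

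**Figure D2:**
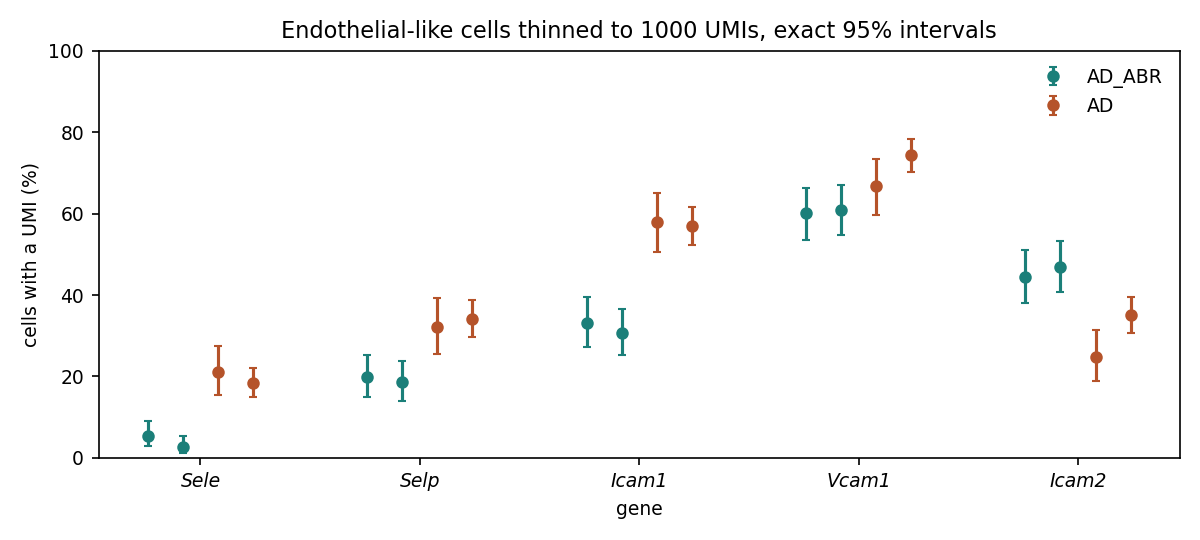
Share of endothelial-like cells (%) with at least 1 UMI of each gene after thinning to 1000 UMIs per cell, by library, with exact 95% binomial intervals. The AD_ABR shares of Sele (5.46 and 2.65%) are below those of AD (21.1 and 18.3%), and Icam2 has the opposite order.

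Sele was also counted together with Selp, Icam1 and Icam2 within single endothelial-like cells. After thinning to 2000 UMIs, 65.3 and 65.8% of the Sele-positive cells of AD also held Selp, against 53.4 and 42.0% of the Sele-negative cells. In AD_ABR there were 20 and 13 Sele-positive cells, of which 60 and 23.1% held Selp, against 29.7 and 31.4% of the Sele-negative cells, so that replicate 2 had the opposite order. Icam1 was seen in 77.6 and 88.0% of the Sele-positive AD cells and in 67.7 and 69.1% of the Sele-negative ones. In AD_ABR it was seen in 65 and 76.9% of the Sele-positive cells and in 52.2 and 50.6% of the Sele-negative ones. Icam2 was seen in 32.7 and 59.8% of the Sele-positive AD cells and in 47.4 and 59.9% of the Sele-negative ones. In AD_ABR it was seen in 50 and 61.5% of the Sele-positive cells and in 67.9 and 69.9% of the Sele-negative ones. These are descriptions of cells that share a library.

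Regulators of NF-kB moved in endothelial-like cells and in other classes. For a list of 11 NF-kB subunits and inhibitors, the median log2 fold change was below 0 in every class tested except cluster 6 (0.0086). It was -0.69 in fibroblast-like cells, -1.33 in cluster 19 and -0.018 in proliferating cells, where the median of all genes was lower (-0.035). In macrophage-like cells (-0.31) and cluster 15 (-0.45) no gene of the list passed in edgeR or DESeq2. In endothelial-like cells 8 of the 11 fell and none rose, and 5 were called by DESeq2, which called 3.07% of all genes in this class. The list, like the others, was chosen with earlier results of these data known. Its counts are therefore no independent evidence. The median of the log2 fold changes was -0.79 for the list, beside -0.0025 for all genes tested. Tnfaip3, which ends NF-kB signalling, had 34.7 and 23.5 CPM in AD_ABR, against 134 and 110 CPM in AD (log2 fold change -2.09 ± 0.19, adjusted p = 1.6e-05). The subunit gene Rel had a log2 fold change of -1.96 ± 0.21, the inhibitor gene Nfkbia -1.25 ± 0.16 and the subunit gene Nfkb1 -0.92 ± 0.16. Genes known to be induced by tissue dissociation also differed in these cells, as 8 of 11 fell, with a median of -0.90. Among them Atf3 had 780 and 1003 CPM in AD_ABR, against 2226 and 2334 CPM in AD (log2 fold change -1.40 ± 0.15), and Fosb had a log2 fold change of -1.09 ± 0.15. The part of dissociation in the difference of the adhesion genes was not tested.

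Few genes of the other lists of the cascade passed in endothelial-like cells. Over all genes tested there 2252 of 10769 had an unadjusted p under 0.05. None of the 8 tested genes of selectin ligand synthesis passed in edgeR, of 10 listed, 2 had an unadjusted p under 0.05, none passed in DESeq2, and their median was 0.11. Of 12 junction molecules through which leukocytes cross, Pvr fell (-0.76 ± 0.21), while Esam and Cldn5 had log2 fold changes of -0.03 and -0.52 that did not pass. Of 12 docking linkers and tetraspanins, Msn, which ties Icam1 and Vcam1 to actin, fell (-0.49 ± 0.13, adjusted p = 0.038). Among 6 tested genes of other selectins and mucins, the sialomucin gene Podxl fell (-0.81 ± 0.17), and among 6 other integrin subunits Itga6 (-1.58 ± 0.32) and Itga5 (-0.55 ± 0.15) fell. The calls in the junction, docking and integrin subunit lists were made by edgeR, and DESeq2 made 0 there. No tested gene of 7 for integrin activation or of 9 for cytokines and receptors that induce adhesion molecules passed in edgeR or DESeq2, and 2 and 1 of them had an unadjusted p under 0.05.

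Of 8 Weibel-Palade body genes Plat fell (-1.05 ± 0.18), whereas Vwf, whose product drives the formation of the granule, had 718 and 744 CPM in AD_ABR and 741 and 752 CPM in AD. Among zonation markers none of 4 tested venous genes passed in edgeR or DESeq2, or had an unadjusted p under 0.05, while Gja4 of the arterial list rose (1.00 ± 0.14), Dll4 of the same list fell (-1.07 ± 0.22), and Rgcc and Cd36 of 3 tested capillary genes fell.

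Markers of other cells in the endothelial-like sums were low for leukocytes, with 10 neutrophil markers at 28.8 and 10.1 CPM in AD_ABR and 169 and 6.99 CPM in AD. Of these, 4 and 6 were at 0 in AD_ABR and 2 and 6 in AD. The 8 smooth muscle markers summed to 2166 and 2165 CPM in AD_ABR and to 1017 and 1205 CPM in AD, and their part in the result was not tested. Transcripts of Rn18s-rs5, which resembles ribosomal RNA, made 22950 and 17590 CPM in AD_ABR and 61560 and 43312 CPM in AD. The number of endothelial calls was also 4 when it and Lars2 were left out of the counts.

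A second group of endothelial cells, cluster 22, held much of the selectin transcript of AD. It was led by Glycam1, Ubd, Ccl21a, Selp and Lrg1, and all 10 endothelial markers were detected in both AD libraries of it. It stayed unnamed because lymphatic markers were among its leading genes, and, since Selp leads it, its Selp level describes the cluster and is no comparison. It held 9 and 8 cells in AD_ABR and 184 and 69 cells in AD, too few for a test. In cluster 22 Sele had 23 and 0 UMIs in AD_ABR and 603 and 296 UMIs in AD, which are 261 and 0 CPM in AD_ABR and 387 and 497 CPM in AD. A count of 0 in AD_ABR replicate 2 allows up to 41.96 CPM. The Icam1 level was 568 and 224 CPM in AD_ABR and 1034 and 1302 CPM in AD. The Vcam1 level had the opposite order, at 1398 and 1007 CPM in AD_ABR and 817 and 944 CPM in AD.

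Of all Sele UMIs of a library, endothelial-like cells held 70.0 and 88.3% in AD_ABR and 36.8 and 50.7% in AD. Cluster 22 held 8.95 and 0% of the Sele UMIs in AD_ABR and 38.3 and 13.2% in AD. Of the Selp UMIs it held 9.52 and 2.09% in AD_ABR and 52.8 and 27.6% in AD. In 2 alternative clusterings, at resolution 0.5 and with the 9 genes kept among the variable genes, no separate cluster 22 was found and the lymphatic endothelial-like class was larger, with 37 and 27 cells in AD_ABR and 316 to 317 and 162 to 163 cells in AD. When cluster 22 was joined to the endothelial-like cells instead, a choice made after seeing the data, 4.06% of all genes passed. The log2 fold changes were -2.78 for Sele, -1.71 for Selp and -1.17 for Icam1, and all 3 passed. Vcam1 then did not pass (-0.36 ± 0.18, adjusted p = 0.28).

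Lymphatic endothelial-like cells were also too few for a test, with 28 and 19 cells in AD_ABR and 132 and 94 in AD. Sele was at 0 in both AD_ABR libraries, which allows up to 11.4 and 15.3 CPM, and at 73.1 and 96.6 CPM in AD. The Vcam1 level was 26.7 and 5.09 CPM in AD_ABR, against 223 and 388 CPM in AD. Icam1 overlapped, at 320 and 254 CPM in AD_ABR and 292 and 384 CPM in AD.

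**Figure D3:**
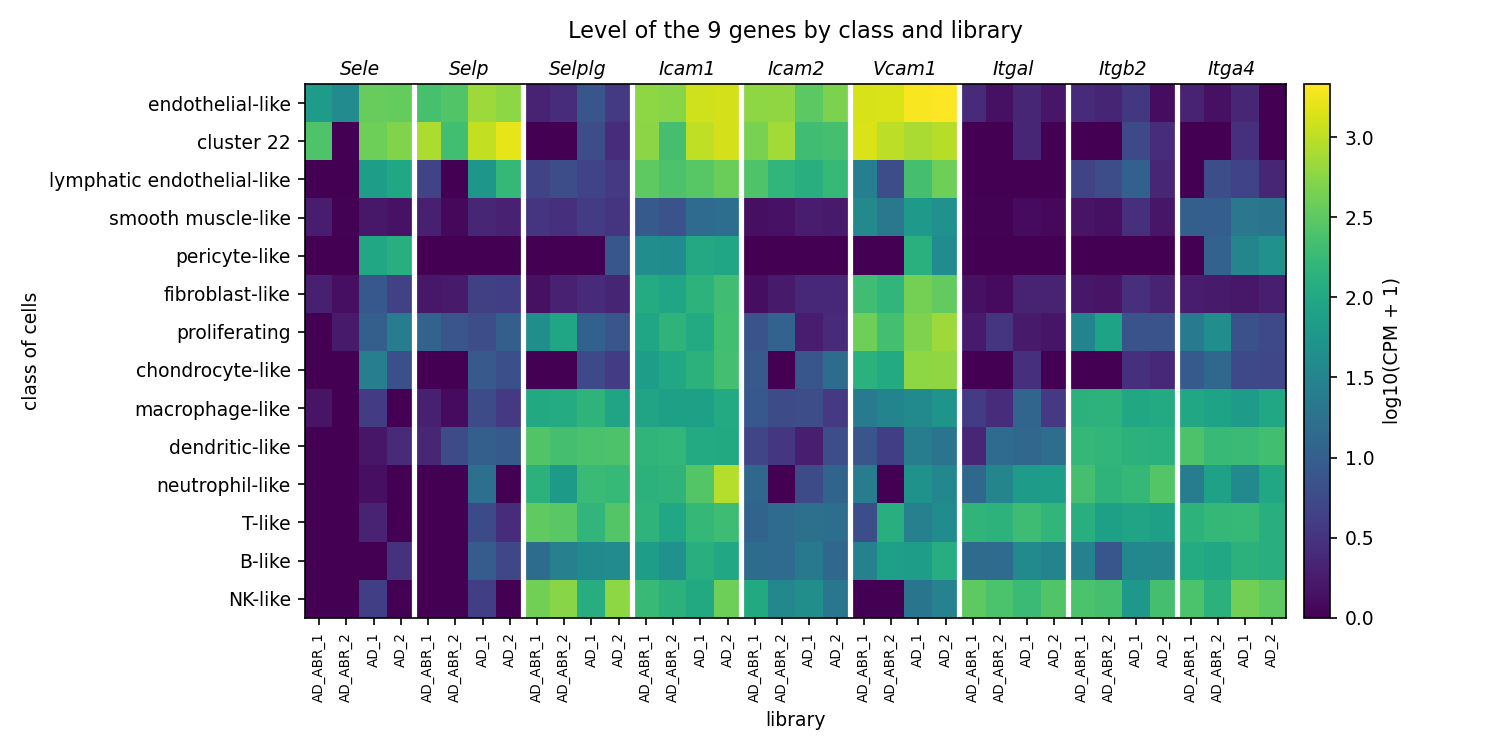
Level of the 9 genes as log10(CPM + 1), by class of cells (rows) and library (columns, AD_ABR left of AD within each gene). Selectins and Icam2 are bright in the endothelial rows, Vcam1 in the endothelial, fibroblast-like, proliferating and chondrocyte-like rows, and Selplg and the integrin subunits in the leukocyte rows.

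Smooth muscle-like cells, with 3588 and 2883 cells in AD_ABR and 909 and 2071 in AD, showed lower Icam1 and Itga4. These were 2 of the 8 genes tested there, both lower, and in this class 16.2% of all genes passed and 8.90% fell. Icam1 had 7.68 and 6.21 CPM in AD_ABR, against 13.6 and 14.9 CPM in AD (log2 fold change -0.97 ± 0.16, adjusted p = 5.6e-04). Itga4 had 9.22 and 8.91 CPM in AD_ABR, against 19.7 and 18.1 CPM in AD (-0.98 ± 0.14, adjusted p = 1.5e-04). Without AD replicate 1 the log2 fold changes were -1.05 for Icam1 and -0.95 for Itga4, and both passed. The class joins clusters 0 and 1. Fitted alone, cluster 0 gave calls for Icam1 (-0.85), Itga4 (-0.80) and Vcam1 (-0.76), where 13.5% of genes passed, and cluster 1 gave a call for Itga4 (-1.29) but not for Icam1 (-0.94, adjusted p = 0.051), where 4.46% passed.

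The Itga4 level of smooth muscle-like cells was above that of fibroblast-like cells, where no library exceeded 0.928 CPM. Itgb2, an integrin subunit of leukocytes, was at 0.481 and 0.426 CPM in AD_ABR smooth muscle-like cells and at 1.83 and 0.572 CPM in AD. The 10 neutrophil markers summed to 1.75 and 1.42 CPM in AD_ABR and to 52.2 and 6.10 CPM in AD, and their part in the Icam1 and Itga4 results was not tested. Other transcripts known mainly from leukocytes were also called lower in these sums, among them Fermt3, which activates leukocyte integrins (log2 fold change -1.27), Cytip (-1.19) and the cytokine genes Il1b (-2.12) and Tnf (-1.88), as was the receptor gene Tnfrsf1b (-1.41). Of the 11 tested genes for integrin activation 4 fell, and of the 9 for cytokines and receptors 3 fell. The part of leukocyte RNA in the Itga4 result was not tested. The 9 macrophage markers summed to 90.7 and 95.1 CPM in AD_ABR and to 85.0 and 66.5 CPM in AD. The 10 endothelial markers summed to 110 and 109 CPM in AD_ABR and to 118 and 124 CPM in AD. Vcam1 had 35.8 and 20.8 CPM in AD_ABR, against 60.0 and 47.4 CPM in AD, and did not pass (-0.83 ± 0.28, adjusted p = 0.11). From the NF-kB list 5 of 11 genes fell in smooth muscle-like cells, with a median of -0.31 beside -0.024 over all genes, and from the dissociation list 6 of 11 fell.

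Vcam1 was called in more classes than any other of the 9 genes. It was tested in all 13 classes, fell in 6, rose in none, and was below AD in both AD_ABR libraries in 11. In these 13 classes the groups did not overlap for 41.5 to 61.9% of all genes. In cluster 14, led by Rgs5, Vcam1 had 9.57 and 8.27 CPM in AD_ABR, against 81.5 and 35.1 CPM in AD (-2.61 ± 0.35, adjusted p = 0.0012). Vcam1 was 1 of 3 genes tested in cluster 14, where 2.07% of all genes passed, and its 11 alternative fits kept the call, with -2.02 without AD replicate 1. In cluster 7, led by Chgb and Dct, it had 91.9 and 141 CPM in AD_ABR, against 286 and 328 CPM in AD (-1.43 ± 0.20, adjusted p = 0.024), where 0.501% of genes passed. The cluster 7 call was lost without AD replicate 1 (-1.52, adjusted p = 0.18) and without AD replicate 2 (-1.31, adjusted p = 0.078).

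In cluster 3, led by Fmod, Vcam1 had 156 and 115 CPM in AD_ABR, against 240 and 315 CPM in AD (-1.02 ± 0.18, adjusted p = 0.014), and 1.1% of genes passed. In cluster 4, led by Hsd11b1, it had 249 and 212 CPM in AD_ABR, against 497 and 395 CPM in AD (-0.92 ± 0.15, adjusted p = 0.0086), and 1.49% passed. Without AD_ABR replicate 2 both Vcam1 calls were lost, with adjusted p of 0.44 in cluster 3 and 0.19 in cluster 4. Without AD replicate 1 both passed, at -1.20 in cluster 3 and -0.78 in cluster 4. Sele in cluster 4 was at 0.157 and 0.442 CPM in AD_ABR and 3.65 and 2.02 CPM in AD (-3.05 ± 0.71, adjusted p = 0.047), on 1 and 3 UMIs in AD_ABR and 11 and 8 UMIs in AD. It reached the filter's level of 1.94 CPM in the AD libraries only. The Sele call in cluster 4 was lost without AD_ABR replicate 1 (adjusted p = 0.37) or 2 (adjusted p = 0.32), DESeq2 gave it no adjusted p, and without AD replicate 1 it was not tested.

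Clusters 3, 4, 7 and 19 had fibroblast markers as their best list but stayed unnamed, so they are not part of the fibroblast-like class. In fibroblast-like cells none of the 8 tested genes passed in edgeR, where 0.569% of all genes did. Of the 8 genes, 7 had an unadjusted p under 0.05 and 3 passed in DESeq2. Over all genes of the class 2775 of 13715 had an unadjusted p under 0.05. Vcam1 was at 206 and 156 CPM in AD_ABR and at 432 and 337 CPM in AD (-1.03 ± 0.20, adjusted p = 0.077). Icam1 was at 110 and 92.0 CPM in AD_ABR and at 142 and 205 CPM in AD (-0.72 ± 0.20, adjusted p = 0.13). Of the 8, Selp, Icam2, Itgal and Itgb2 reached the filter's level in AD libraries only. The groups did not overlap for Vcam1 and Icam1, nor for 53.3% of all genes of this class. DESeq2 called 2.71% of all genes here. Of the 2 clusters of this class, cluster 9, led by Igfbp6 and C7, gave calls for Vcam1 (-1.49 ± 0.21, adjusted p = 9.5e-04) and Icam1 (-1.35 ± 0.25, adjusted p = 0.015) when fitted alone, where 0.34% of genes passed. Cluster 2 alone gave none, where 0.0522% passed. Cluster 15, led by Col10a1, and cluster 19, led by Apod and Cxcl13, gave no call among 4 and 2 tested genes, with 0.0498 and 0.256% of all genes called. There 1 and 2 of the genes had an unadjusted p under 0.05, as had 904 of 10038 and 806 of 7799 over all genes. DESeq2 called 0 and 1 of the tested genes, and 0.378 and 2.16% of all genes. Vcam1 in cluster 19 was at 108 and 137 CPM in AD_ABR and at 445 and 245 CPM in AD.

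**Figure D4:**
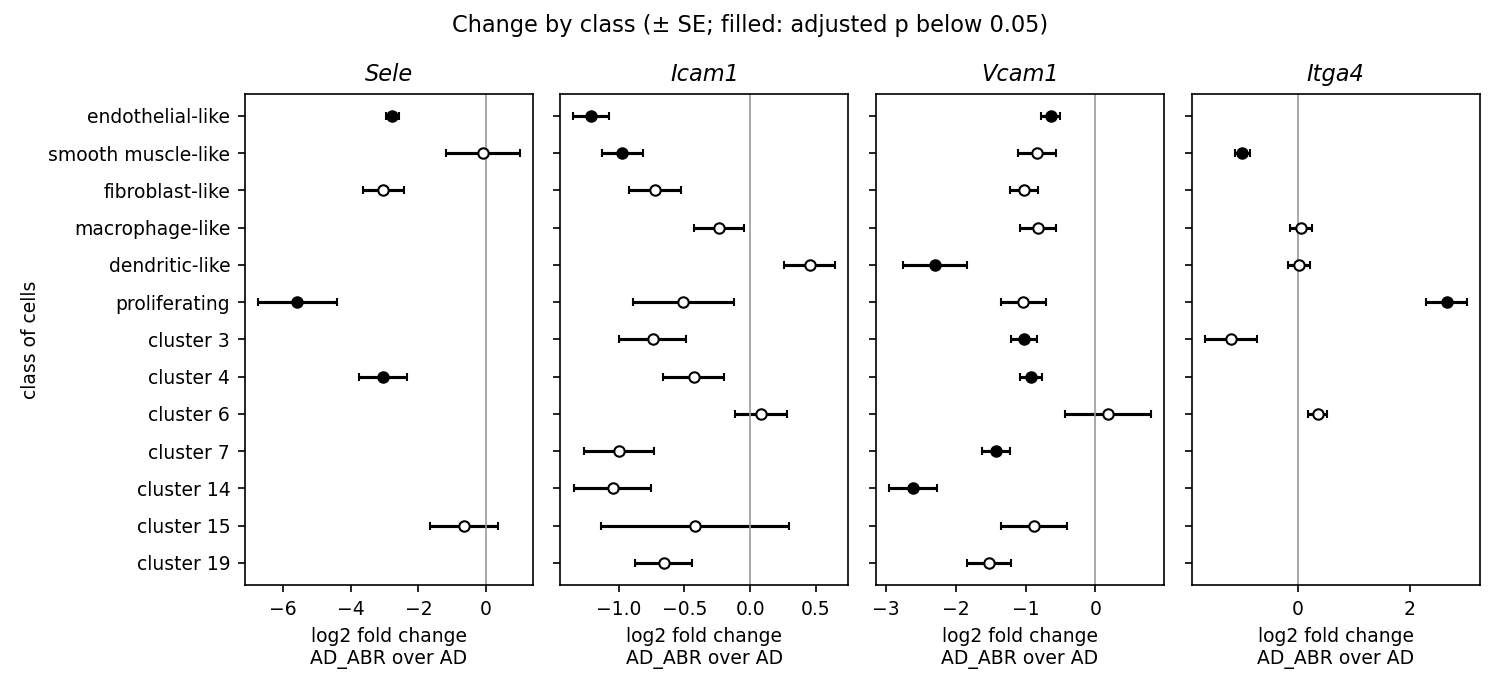
Log2 fold change (AD_ABR over AD, ± SE) of Sele, Icam1, Vcam1 and Itga4 in each class where the gene was tested. Filled points passed an adjusted p of 0.05. Sele in cluster 4 and in proliferating cells reached the filter's level in AD libraries only. Vcam1 is filled in 6 classes, all to the left of 0, and Itga4 is filled to the left in smooth muscle-like and to the right in proliferating cells.

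Selplg and the integrin subunits were transcribed in the leukocyte classes, and with all 4 libraries none of them passed in edgeR in the 3 of those that could be tested, dendritic-like cells, macrophage-like cells and cluster 6. Dendritic-like cells, 85 and 140 in AD_ABR and 563 and 504 in AD, had Selplg at 269 and 225 CPM in AD_ABR and at 234 and 250 CPM in AD. Their Itga4 was at 253 and 179 CPM in AD_ABR and at 188 and 208 CPM in AD. Their Itgb2 was at 164 and 155 CPM in AD_ABR and at 135 and 130 CPM in AD. Of 7 genes tested in this class only Vcam1 passed, at 6.56 and 3.16 CPM in AD_ABR and 23.8 and 18.2 CPM in AD (-2.30 ± 0.46, adjusted p = 0.029), where 1.31% of genes passed. It rests on 5 and 4 UMIs in AD_ABR and 81 and 57 UMIs in AD, was -2.09 without AD replicate 1, and was lost without AD_ABR replicate 2 (adjusted p = 0.27) and in DESeq2 (adjusted p = 0.12). The 10 fibroblast markers in these cells summed to 262 and 709 CPM in AD_ABR and to 346 and 369 CPM in AD.

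Macrophage-like cells numbered 366 and 715 in AD_ABR and 1031 and 408 in AD. None of the 6 tested genes passed in edgeR, where 0.00909% of all genes did, 1 had an unadjusted p under 0.05 and none passed in DESeq2, which called 1.54% of all genes. Over all genes of the class 1617 of 11006 had an unadjusted p under 0.05. The counts of passing genes depended on the libraries and on the cells in the class. Without AD replicate 1, 7.01% of all genes passed, with Vcam1 among them (-0.97, adjusted p = 0.0026). Without AD replicate 2, 25.7% passed, with Vcam1 (-0.62, adjusted p = 0.022), Selplg (-0.56, adjusted p = 0.0088), Itgal (-2.50) and Selp (-3.35) among them, the last 2 not tested with all 4 libraries. With no doublet removal the class held other cells, 382 and 670 in AD_ABR and 206 and 522 in AD. There 10.7% of all genes passed, with Vcam1 at -2.70 (adjusted p = 2.6e-04). At resolution 0.5 the class held 447 and 973 cells in AD_ABR and 1790 and 963 in AD, and 7.87% passed. Itgb2, the shared beta subunit of leukocyte integrins, was at 138 and 142 CPM in AD_ABR and at 97.3 and 108 CPM in AD (0.37 ± 0.17, adjusted p = 0.38). Selplg overlapped, at 106 and 110 CPM in AD_ABR and at 147 and 86.6 CPM in AD. Different clusters held most of this class, cluster 12 in AD_ABR and cluster 11 in AD replicate 1. Cluster 11 alone gave no call, where 0% of genes passed, and cluster 12 gave none, where 3.78% passed. In cluster 12 Itgb2 was at 143 and 143 CPM in AD_ABR and at 119 and 118 CPM in AD and did not pass (adjusted p = 0.43).

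Cluster 6, led by Arg1 and Trem2, had 143 and 274 cells in AD_ABR and 805 and 666 in AD. None of its 8 tested genes passed in edgeR or in DESeq2, and 2 had an unadjusted p under 0.05. Of all genes of the cluster, 4.52% passed in edgeR and 3.78% in DESeq2, and 2136 of 10541 had an unadjusted p under 0.05. There Selplg was at 152 and 146 CPM in AD_ABR and at 94.4 and 116 CPM in AD (0.52 ± 0.17, adjusted p = 0.12), and Itgal was at 21.3 and 17.6 CPM in AD_ABR and at 8.60 and 13.5 CPM in AD.

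Lymphocyte, natural killer and neutrophil classes had too few AD_ABR cells for a test. T-like cells, 40 and 89 in AD_ABR and 356 and 180 in AD, had Itgal at 152 and 140 CPM in AD_ABR and at 199 and 155 CPM in AD. Their Selplg was at 324 and 299 CPM in AD_ABR, above the 154 and 275 CPM of AD, and their Itga4 overlapped, at 141 and 165 CPM in AD_ABR and at 170 and 122 CPM in AD. In natural killer-like cells, 6 and 20 in AD_ABR and 109 and 37 in AD, Itgal had 9 and 14 UMIs in AD_ABR and 60 and 28 in AD. With the 9 genes kept among the variable genes, 104 cells of AD replicate 1 and 1 of AD replicate 2 formed a separate T-like cluster, led by Ttn and Cited4, and the natural killer-like cells numbered 6 and 20 in AD_ABR and 5 and 36 in AD. The Itgal count of AD replicate 1 given above includes both kinds of cells. In neutrophil-like cells Itgb2 was at 225 and 144 CPM in AD_ABR, from 18 and 9 UMIs, and at 163 and 275 CPM in AD. Icam1 in neutrophil-like cells was at 138 and 144 CPM in AD_ABR and at 270 and 922 CPM in AD, from 11 and 9 UMIs in AD_ABR and 705 and 345 UMIs in AD. B-like cells had Itga4 at 111 and 94.2 CPM in AD_ABR and at 137 and 121 CPM in AD, from 8 and 14 UMIs in AD_ABR.

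Proliferating cells, 63 and 87 in AD_ABR and 645 and 925 in AD, differed in makeup between the groups. Their 9 macrophage markers summed to 2256 and 6169 CPM in AD_ABR and to 364 and 328 CPM in AD, and the 10 fibroblast markers to 10774 and 6148 CPM in AD_ABR and to 10597 and 17111 CPM in AD. Of 8 tested genes 4 rose, 1 was lower and called, and 11.1% of all genes passed in this class. The genes that rose were Selplg (2.98 ± 0.39, adjusted p = 0.011), Itgb2 (3.16 ± 0.45, adjusted p = 0.013), Itga4 (2.65 ± 0.36, adjusted p = 0.011) and Icam2 (2.74 ± 0.56, adjusted p = 0.029). Itgb2, for example, was at 31.1 and 84.0 CPM in AD_ABR and at 6.07 and 6.21 CPM in AD. Whether the macrophage share of this class accounts for them was not tested. The class joins cluster 8, with 44 and 40 cells in AD_ABR and 575 and 869 in AD, and cluster 23. Cluster 23 had 19 and 47 cells in AD_ABR and 70 and 56 in AD. At resolution 0.5, a coarser clustering, the class held other cells, 107 and 112 in AD_ABR and 791 and 1429 in AD. Another cluster with proliferation markers, led by Cma1 and Mcpt4, stayed unnamed there, with 72 and 45 cells in AD_ABR and 53 and 110 in AD. In the coarser class none of the 4 genes that rose passed. The fold changes of Selplg and Itgb2 changed sign, to -0.53 and -1.54, that of Itga4 was 0.77 (adjusted p = 0.46) and that of Icam2 1.84 (adjusted p = 0.34). The Itgb2 call was lost without AD replicate 1 (adjusted p = 0.056) or 2 (adjusted p = 0.068). The Icam2 call was lost without AD replicate 1 (adjusted p = 0.27), AD replicate 2 (adjusted p = 0.20) or AD_ABR replicate 2 (adjusted p = 0.16).

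Sele in proliferating cells had 0 and 1 UMIs in AD_ABR and 159 and 534 UMIs in AD, or 0 and 0.718 CPM in AD_ABR and 9.11 and 25.1 CPM in AD (adjusted p = 0.032). It reached the filter's level of 1.06 CPM in the AD libraries only. The 0 in AD_ABR replicate 1 allows up to 2.27 CPM. Thinned to 1000 UMIs, Sele was seen in 0 and 0% of the AD_ABR cells, which allows up to 4.84 and 3.53%, and in 0.792 and 2.58% of the AD cells. Without thinning it was seen in 0 and 1.15% of the AD_ABR cells and in 8.99 and 15.8% of the AD cells. The 10 endothelial markers summed to 126 and 94.8 CPM in AD_ABR and to 106 and 87.8 CPM in AD. Proliferating cells held 10.1 and 23.8% of the Sele UMIs of AD. The Sele call of proliferating cells was lost without AD_ABR replicate 1 (adjusted p = 0.17), AD_ABR replicate 2 (adjusted p = 0.21) or AD replicate 2 (adjusted p = 0.084), at resolution 0.5 (-2.74, adjusted p = 0.11) and with no doublet removal (-3.71, adjusted p = 0.054).

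Summed over all kept cells, Sele, Selp and Vcam1 fell, 3 of the 9 genes, where 3.49% of all genes passed and 2.46% fell in edgeR. DESeq2 called 8 of the 9, and 19.1% of all genes. Fewer cells of a type and less RNA per cell cannot be told apart in these sums. Sele was at 3.02 and 1.28 CPM in AD_ABR, against 23.8 and 25.6 CPM in AD (-3.42 ± 0.41, adjusted p = 0.033). Selp was at 8.998 and 8.29 CPM in AD_ABR, against 47.1 and 39.7 CPM in AD (-2.22 ± 0.13, adjusted p = 0.017). Vcam1 was at 145 and 128 CPM in AD_ABR, against 338 and 459 CPM in AD (-1.45 ± 0.21, adjusted p = 0.041). The groups did not overlap for 8 of the 9 genes, all lower, nor for 66.1% of all genes. Without either AD_ABR replicate none of the 9 genes passed in these sums, and without AD replicate 1 Sele did not pass (-3.50, adjusted p = 0.061).

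Icam1, Selplg, Itgal, Itgb2 and Itga4 were lower in both AD_ABR libraries over all cells and did not pass, with adjusted p between 0.071 and 0.14. For Itgal the levels were 1.07 and 1.75 CPM in AD_ABR and 9.43 and 3.58 CPM in AD. Icam2 overlapped, at 21.2 and 20.5 CPM in AD_ABR and 16.7 and 23.0 CPM in AD.

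As a description of the cells present, the mean AD level of every class was weighted by the class shares of UMIs in each AD_ABR library. The weights take the classes as named here and the values carry no test. For Itgb2 this gave 8.44 and 13.9 CPM, where AD_ABR had 9.64 and 16.7 CPM, against 39.0 and 20.2 CPM in AD. For Selplg it gave 9.94 and 15.7 CPM, where AD_ABR had 10.7 and 17.1 CPM. For Sele it gave 13.8 and 12.99 CPM, above the 3.02 and 1.28 CPM observed, and for Selp 24.0 and 21.8 CPM, above 8.998 and 8.29 CPM. For Icam1 the weighted levels were 153 and 173 CPM and the observed ones 93.4 and 99.5 CPM, and for Vcam1 the weighted levels were 248 and 270 CPM and the observed ones 145 and 128 CPM. For Itgal they were 1.41 and 2.32 CPM against 1.07 and 1.75 CPM observed in AD_ABR, and for Itga4 15.5 and 17.5 CPM against 11.8 and 14.2 CPM. For Icam2 the weighted levels, 15.1 and 13.8 CPM, were below the observed 21.2 and 20.5 CPM.

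**Figure D5:**
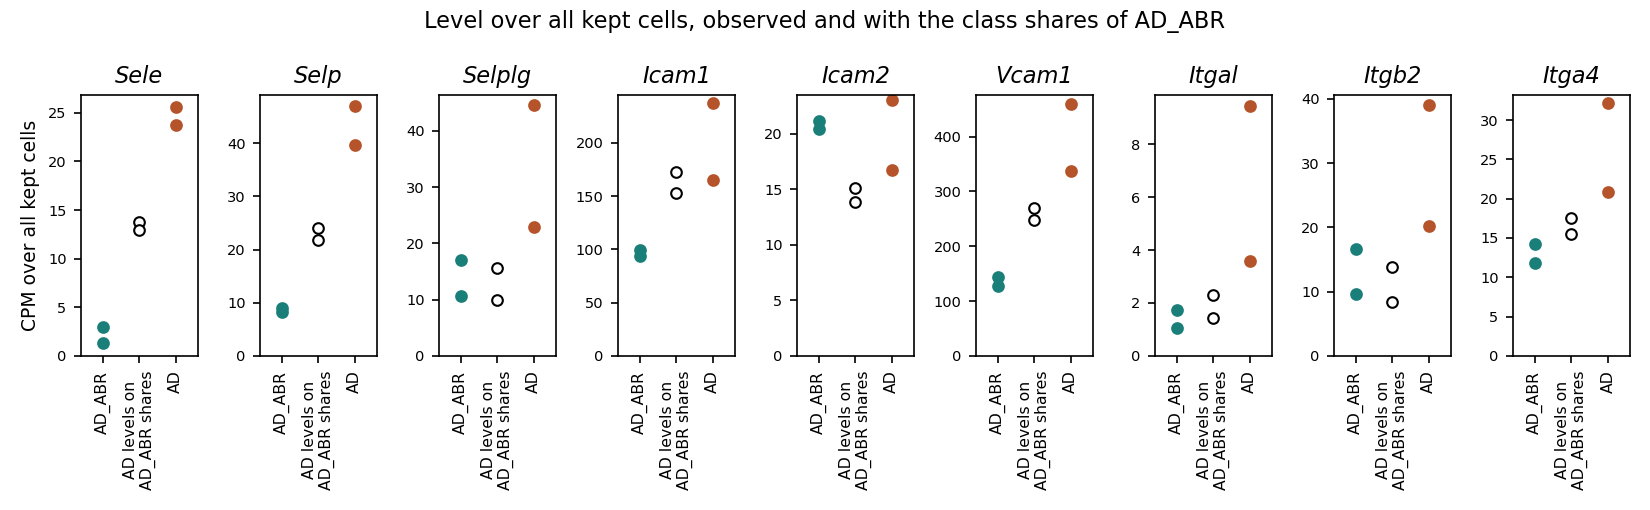
Level of each gene over all kept cells (CPM, linear axes from 0). Filled points are the observed AD_ABR and AD libraries, and open points between them are the mean AD levels of each class weighted by the class shares of the AD_ABR libraries. For Sele the open points (13.8 and 12.99 CPM) lie between AD_ABR and AD, and for Itgb2 (8.44 and 13.9 CPM) they lie at the AD_ABR level.

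The change in endothelial-like cells was set against that in smooth muscle-like, fibroblast-like and macrophage-like cells in fits with a term for the difference. None of 22 such differences passed in edgeR, while 4.92, 0.996 and 0% of all genes passed in the 3 fits. Of the 22, 8 had an unadjusted p under 0.05. Over all genes 2152 of 13396, 1216 of 13155 and 1155 of 12067 had one in the 3 fits. For Sele against smooth muscle-like cells the difference of log2 fold changes was -2.65 ± 0.75 (adjusted p = 0.11), and it passed without AD replicate 1 (-2.83, adjusted p = 1.6e-05), AD replicate 2 (-2.36, adjusted p = 0.0051) or AD_ABR replicate 2 (-3.14, adjusted p = 8.2e-06). Without AD_ABR replicate 1 it changed sign and did not pass (0.21, adjusted p = 0.95), so its direction rests on that library. In AD_ABR replicate 1 the 32 Sele UMIs of smooth muscle-like cells came from 2 cells. For Icam2 it was 1.33 ± 0.42 against smooth muscle-like cells (adjusted p = 0.067). Against fibroblast-like cells the Icam2 difference was 1.70 ± 0.43 (adjusted p = 0.055). It passed there in edgeR with RLE factors, another scaling of the libraries (1.70, adjusted p = 0.049), and was 2.41 without AD_ABR replicate 2. For Icam1 against macrophage-like cells it was -0.98 ± 0.24 (adjusted p = 0.36), and it passed without AD replicate 2 (-1.11, adjusted p = 0.0076). For Vcam1 it was 0.23 ± 0.43 against smooth muscle-like cells and 0.41 ± 0.20 against fibroblast-like cells. Some of the 22 rest on few UMIs in a class. Selplg, Itgb2 and Itga4 were near the floor in endothelial-like cells. Macrophage-like cells held 0.389 and 0% of the 257 and 111 Sele UMIs of AD_ABR, and 0.826 and 0% of the 1574 and 2240 of AD. In the main fits with all 4 libraries the change was not shown to differ between endothelial-like cells and the other classes compared. Not passing does not show that a change was shared. With RLE factors only Icam2 against fibroblast-like cells passed.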

How the data were processed

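Droplet libraries of cells from the ascending aorta were analysed, 2 of AD_ABR and 2 of AD mice. The submitters' processing notes name STAR, Cell Ranger 6.0, Seurat 4.0 and GRCm38 without their roles. The authors deposited raw UMI counts per gene and cell, made with Cell Ranger 7.1.0 per the file headers. Cells with at least 200 genes and under 20% mitochondrial counts were kept. The highest-scoring 0.8% per 1000 barcodes by Scrublet were removed as likely doublets, since the caller's own threshold marked 1 cell in AD replicate 1. Clustering (scanpy 1.11.5) used 2000 variable genes without the 9 genes, 30 components and Leiden resolution 1. Clusters were named where at least 3 markers of a list were detected and its mean log2 fold over other cells was at least 1. No other list was allowed to hold more of the leading genes. Clusters 3, 4 and 7 had fibroblast markers as their best list, with 10 detected in each. They stayed unnamed because their means were 0.86, 0.95 and 0.59. Counts were summed per class and library and tested with edgeR 4.0.16 (TMM, filterByExpr, robust quasi-likelihood, Benjamini-Hochberg), with DESeq2 1.42.0 as an alternative.

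The edgeR fit alone was run on counts simulated from the sums of endothelial-like cells, with the dispersions estimated from them. It found 57 of 99 genes changed by 1 on the log2 scale and 94 of 97 changed by 2, with 13 false calls among 10529 genes. Filtering of cells, doublet removal, clustering and naming were not part of that run. Genes were named as all 9 members plus members of 13 pathway lists. The members and lists were chosen with earlier results of these data known. Intervals, and floors of 3 counts, cover counting error only.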

Additional observations from a re-analysis of the deposited data

Results flagged for a closer look

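The change of Itga4, an integrin subunit that binds Vcam1, ran in opposite directions in proliferating cells and in smooth muscle-like cells. In proliferating cells the log2 fold change was 2.65, with 23.5 and 42.4 CPM in AD_ABR and 5.61 and 4.42 CPM in AD. At a coarser clustering, where the class held other cells, it was 0.77 and did not pass (adjusted p = 0.46). In smooth muscle-like cells it was -0.98, with 9.22 and 8.91 CPM in AD_ABR and 19.7 and 18.1 CPM in AD. The gap between the changes was 3.64 on the log2 scale, every library of each class lay on its own side, and the difference was not tested. Macrophage markers in the proliferating sums were at 2256 and 6169 CPM in AD_ABR and at 364 and 328 CPM in AD, and their part in the difference was not tested.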

How the results depend on the processing

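In endothelial-like cells Sele (log2 fold change -3.19 to -2.45), Selp (-1.71 to -1.30) and Icam1 (-1.27 to -1.15) kept their calls under every alternative run. The number of calls of the 9 genes over the 13 classes, 17, became 30 with no filter on low counts. With a library left out it was lowest without AD_ABR replicate 2 and highest without AD replicate 2. Over all genes 4.00% passed in these classes, 4.68% with no filter, 1.80% without AD_ABR replicate 2 and 11.8% without AD replicate 2. Over the 6 named classes the 9 genes had 12 calls, and 19 with no doublet removal, where 6.58 and 7.24% of all genes passed. With no doublet removal the named classes held other cells, so these counts are not of the same cells. Over all kept cells the 3 calls became 5 with no filter and 8 with DESeq2, and ranged from 0 (without either AD_ABR replicate) to 9 (without AD replicate 2) with a library left out. The share of all genes called there moved with these counts, from 3.49% to 7.59% with no filter, 19.1% with DESeq2, 0% without either AD_ABR replicate and 25.8% without AD replicate 2. The 22 differences between classes had 0 calls, 1 with RLE factors, and 0 (without AD_ABR replicate 1) to 2 (without AD replicate 2 or AD_ABR replicate 2) with a library left out. The labels do not say whether libraries of the same number form a pair. Deviations of same-numbered libraries correlated at -0.0841 to 0.147, which with 2 libraries a group cannot decide it. With the replicate number as a block the calls were 28 over the classes and 1 over all kept cells, with 7.49 and 0.51% of all genes.

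The difference in the share of endothelial-like cells with a UMI, in percentage points at 1000 UMIs, was -15.6 for Sele, -14.0 for Selp, -25.5 for Icam1, -10.1 for Vcam1 and 15.9 for Icam2. Without thinning it was -25.3, -7.69, -6.72, -3.85 and 7.68 in that order, and at 2000 UMIs it was -19.8 for Sele, -20.8 for Selp and -19.6 for Icam1. At a coarser clustering the sign changed for Icam2 in fibroblast-like cells (0.027) and for Itgb2 (-1.54) and Selplg (-0.53) in proliferating cells. Both classes then held other cells, with 3085 and 4584 fibroblast-like cells in AD_ABR and 1380 and 2821 in AD. Of 20 calls in the classes and in all kept cells, 5 were kept under every alternative. The causes were not tested. Classes with under 50 cells in a library were not tested, and their levels rest on few UMIs in AD_ABR.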

Other observations

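Cluster 22, the small endothelial group in which Selp led, held Glycam1, a mucin that carries the L-selectin ligand in high endothelial venules, in 1 library. Glycam1 was at 0 in both AD_ABR libraries, at 14411 CPM in AD replicate 1 and at 0 in AD replicate 2. In lymphatic endothelial-like cells of AD it was at 1195 and 5.22 CPM. In cluster 22 the chemokine gene Ccl21a was at 0 in both AD_ABR libraries and at 2768 and 77.2 CPM in AD. Ackr1, a marker of venules, was at 170 and 13.99 CPM in AD_ABR, from 15 and 1 UMIs, and at 141 and 277 CPM in AD. The AD_ABR values of cluster 22, with their counts of 0, rest on 9 and 8 cells.

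Pericyte-like cells, 16 and 16 in AD_ABR and 27 and 55 in AD, had 0 and 0 Sele UMIs in AD_ABR and 18 and 53 in AD. The counts of 0 allow up to 25.5 and 30.4 CPM in AD_ABR, and the AD level was 95.4 and 120 CPM. Selp and Icam2 were at 0 in these cells in all 4 libraries, and the 10 endothelial markers summed to 85.1 and 0 CPM in AD_ABR and to 42.4 and 97.6 CPM in AD.

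Chondrocyte-like cells, 33 and 8 in AD_ABR and 280 and 189 in AD, had Vcam1 at 131 and 108 CPM in AD_ABR and at 585 and 595 CPM in AD.

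Over the 52 pairs of class and library, the genes whose levels were most like a member's, by Pearson's r of log levels, were Adgrf5 for Sele (0.861), Myct1 for Selp (0.900), Ikzf1 for Selplg (0.980) and Itpr2 for Icam1 (0.907). They were Emcn for Icam2 (0.884), Fbln2 for Vcam1 (0.905), Gna13 for Itgal (0.904), Pld4 for Itgb2 (0.985) and Gpr183 for Itga4 (0.938). These points share libraries and classes, and the values are a description.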
